A study of Mus musculus with 72 samples.

Results

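A set of 9 genes that mark slow (type I) skeletal fibers were followed here through the gastrocnemius libraries of a *Bmal1*-knockout rescue study. They are the slow troponins *Tnnt1*, *Tnni1*, and *Tnnc1*, the slow myosin light chains *Myl2* and *Myl3*, slow tropomyosin *Tpm3*, the calcium pump SERCA2 (*Atp2a2*), calsequestrin 2 (*Casq2*), and phospholamban (*Pln*). The 9 symbols were matched to 9 of the 55401 genes in the 2 deposited tables, and all 9 passed the filter on low values (a mean normalized count above 5) in both. RNA-Seq was performed on gastrocnemius of male mice, with WT littermates, mice lacking *Bmal1* in the whole body (KO), and KO mice given HA-tagged *Bmal1* in an AAV9 vector as pups (KO+AAV), taken at ZT1 at 10 weeks (6 WT, 6 KO, and 7 KO+AAV libraries) or 40 weeks of age (5 of each). The CK6 promoter that drives the vector is active in skeletal muscle fibers, and by the study's account the HA tag was not found in soleus, a slow muscle, or in heart. A separate experiment at 10 weeks held 3 KO libraries with a GFP vector under the same promoter (KO+GFP) and 3 KO control libraries. Of the 10-week libraries of the main experiment, ICBR read 3 WT, 3 KO, and 4 KO+AAV, Novogene read the others, and every 40-week gastrocnemius library came from Novogene. Reads counted on genes ranged from 9325122 to 41733282 in the 34 libraries of the main experiment and from 6754312 to 8515400 in the GFP experiment.

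Fast and slow fibers build the same contractile machine from different gene copies. Troponin T, I, and C and tropomyosin form the calcium switch on the thin filament, the light chains sit on the neck of myosin, SERCA pumps calcium back into the sarcoplasmic reticulum, calsequestrin stores it there, and phospholamban holds SERCA2 back. Most of the 9 genes are shared with the heart, and the mouse gastrocnemius is mainly a fast muscle in which slow fibers lie in a small deep region. In bulk tissue, fewer slow fibers and less slow-fiber RNA per fiber cannot be told apart.

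The labelled tissue was checked by *Myh4*, the fast myosin of type IIb fibers, which ranged from 212270 to 1266819 normalized counts over the 34 libraries. The deleted gene was read next. *Arntl*, the gene symbol of *Bmal1*, ranged from 402.5 to 633.9 normalized counts in 10-week WT muscle, with a median of 526.7. The KO libraries of that age held 196.1 to 296.5 (median 236.2) and the KO+AAV libraries 169.3 to 281.1 (median 222.1). At 40 weeks WT libraries held 479.9 to 607.9 and KO+AAV libraries 268.1 to 358.6, and 4 of the 5 KO libraries held 307.5 to 395.4. The library labelled KO replicate 2 at 40 weeks held 1039, above every WT library. The clock gene *Per3* was at 3.58 there, the lowest of the 34 libraries. The 40-week differences of *Casq2* and *Pln* from the KO group are given with and without this library. So are those of *Pln* between ages in KO and between ages of WT versus KO. *Per3* set the groups with endogenous or vector *Bmal1* apart from KO, with medians of 230.3, 28, and 202.4 in WT, KO, and KO+AAV at 10 weeks and 357.3, 15.2, and 107.6 at 40 weeks.

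The promoters of 3 members are shown because *Casq2* and *Pln* were called between genotypes below, and *Tnni1* had the smallest adjusted *P* of the uncalled members for WT versus KO at both ages. Each stretch runs from 250 bases before to 50 bases after the RefSeq gene start on GRCm38.p6, read on the strand of the gene, with capitals at each CANNTG, the short E-box core that myogenic and clock bHLH factors bind. *Casq2* lies at chr3:102086165-102086464 (+), *Pln* at chr10:53337436-53337735 (+), and *Tnni1*, first of its 2 starts, at chr1:135799171-135799470 (+).
Casq2: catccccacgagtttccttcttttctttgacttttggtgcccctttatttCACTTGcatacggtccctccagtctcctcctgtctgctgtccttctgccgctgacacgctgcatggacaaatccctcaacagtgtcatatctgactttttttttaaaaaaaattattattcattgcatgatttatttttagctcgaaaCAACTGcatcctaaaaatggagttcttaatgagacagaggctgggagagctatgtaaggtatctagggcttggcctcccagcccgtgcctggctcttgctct
Pln: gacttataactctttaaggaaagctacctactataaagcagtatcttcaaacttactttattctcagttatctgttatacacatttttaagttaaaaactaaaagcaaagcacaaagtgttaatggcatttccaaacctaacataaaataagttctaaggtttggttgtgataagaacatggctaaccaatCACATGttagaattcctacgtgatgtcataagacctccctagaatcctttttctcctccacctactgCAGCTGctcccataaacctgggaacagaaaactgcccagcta
Tnni1: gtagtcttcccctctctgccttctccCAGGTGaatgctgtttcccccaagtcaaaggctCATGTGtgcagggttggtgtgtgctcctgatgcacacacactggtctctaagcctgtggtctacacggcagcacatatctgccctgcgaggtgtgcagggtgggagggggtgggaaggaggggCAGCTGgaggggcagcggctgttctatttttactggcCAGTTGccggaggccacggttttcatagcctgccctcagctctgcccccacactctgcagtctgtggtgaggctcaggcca
Of the members, 8 matched 11 RefSeq promoters (*Atp2a2* had no entry). CACGTG, the E-box word preferred by BMAL1 and CLOCK, was in 0 of the 11 and in 7.15% of all 32851 promoters. CANNTG, which includes CACGTG and reads alike on both strands, was in each of the 11 and in 72.3% of all. CATTCC, searched on both strands as the site of TEAD factors, was in those of *Tnnc1* and *Myl3* and in 14.7% of all, and TATAAA, searched likewise, in those of *Tnnt1*, *Myl2*, and *Pln* and in 13.6% of all. A match describes the letters of this window only.

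Slow-fiber transcripts varied widely between libraries of the same group, and they varied together. *Tnni1*, the slow inhibitory troponin, spanned 3.94 to 11837 normalized counts over the 34 libraries, and within a group its highest library stood 27.8-fold to 201.3-fold above the lowest. *Atp2a2* spanned 858.7 to 40968, with 5.5-fold to 19-fold within a group. By its widest group *Casq2* was the tightest, with 2.76-fold to 4.19-fold within a group, while the narrowest group of *Pln* spanned 2.3-fold. A single library was often at the end of the range for most members: replicate 7 was highest for 8 of 9 members in 10-week WT, replicate 1 for 8 in 10-week KO, replicate 6 for 8 in 10-week KO+AAV, and replicate 3 for all 9 in 40-week KO. In 40-week WT and 40-week KO+AAV muscle the library highest most often was so for 5 of 9. At the low end the number was 8, 7, and 4 in WT, KO, and KO+AAV at 10 weeks and 8, 6, and 7 at 40 weeks. After group and site means were removed, the correlation of each member with the mean of the other 8 over the 34 libraries was 0.973 for *Tnnt1*, between 0.903 and 0.938 for *Tnni1*, *Tnnc1*, *Myl2*, *Myl3*, *Tpm3*, and *Atp2a2*, 0.836 for *Casq2*, and 0.588 for *Pln*. These points share libraries and normalization and are a description. *Myh7*, the slow myosin heavy chain, moved alike, from 6.57 to 53008.

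**Figure D1:**
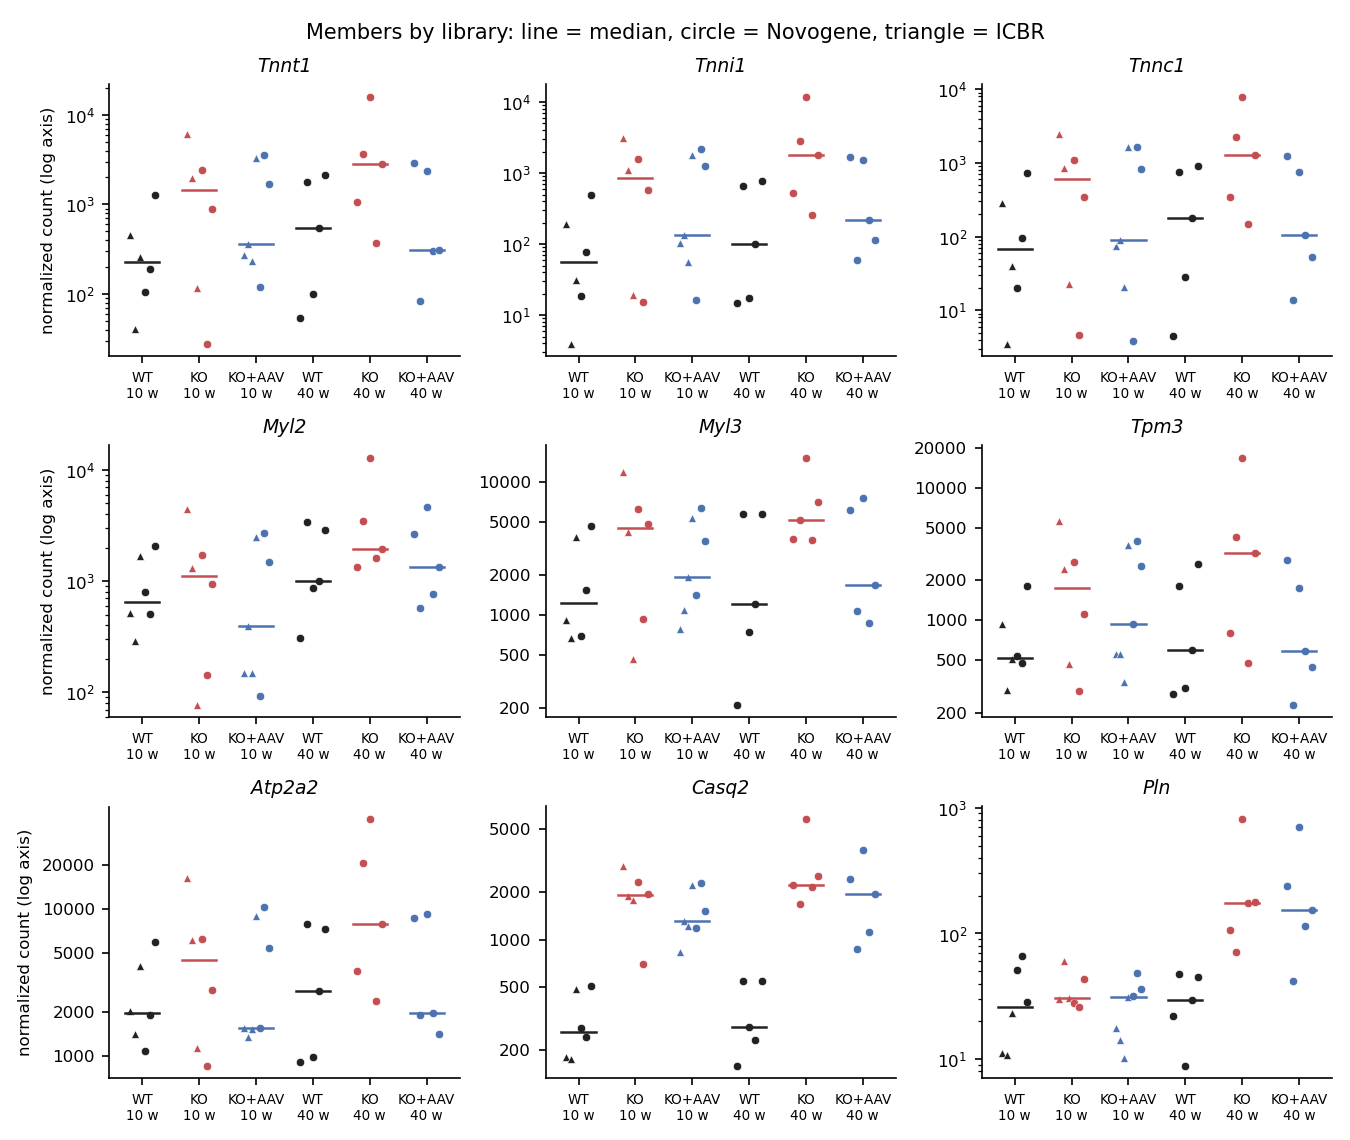
Normalized count of each member (y axis, log scale) in each gastrocnemius library of the main experiment by group (x axis), with the group median as a line, Novogene libraries as circles, and ICBR libraries as triangles. *Casq2* in every WT library lies below every KO and KO+AAV library of its age, *Pln* in all 5 KO and 4 of 5 KO+AAV libraries at 40 weeks lies above every WT library of that age, and the other 7 members spread by 4.12-fold to 538-fold within a group.

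Among the slow troponins no difference between WT and KO passed the test in the main limma fit. *Tnnt1*, which anchors the troponin complex to tropomyosin, ranged from 40.7 to 1273 (median 226.0) in WT and from 27.6 to 6122 (median 1438) in KO muscle at 10 weeks. At 40 weeks its counts were 53.4, 1764, 100.9, 544.2, and 2124 in WT and 1055, 3687, 15920, 373.0, and 2866 in KO libraries. The groups overlapped at both ages, and WT minus KO was -1.57 ± 1.21 (log2, SE) at 10 weeks (adjusted *P* = 0.549, limma) and -2.50 ± 1.33 at 40 weeks (adjusted *P* = 0.178).
*Tnni1* was 3.94 to 499.6 (median 55.3) in WT and 15.4 to 3093 (median 840.7) in KO muscle at 10 weeks. Its 40-week values were 14.8, 660.4, 17.7, 100.1, and 778.4 in WT, 526.9, 2790, 11837, 255.2, and 1790 in KO, and 1675, 60.4, 1517, 218.2, and 115.1 in KO+AAV libraries. WT libraries reached into the lower part of the KO range, and the difference was -2.56 ± 1.42 at 10 weeks (adjusted *P* = 0.339) and -3.80 ± 1.56 at 40 weeks (adjusted *P* = 0.0753). At 40 weeks *Tnni1* was called by DESeq2, and by limma without WT replicate 5 (-4.51, adjusted *P* = 0.0461). Without KO replicate 3 it was not called (-3.06, adjusted *P* = 0.184, limma). *Tnnc1*, the calcium sensor that slow fibers share with the heart, ranged from 3.5 to 738.8 in WT and from 4.61 to 2479 in KO at 10 weeks, and from 4.45 to 905.0 in WT and 146.3 to 7870 in KO at 40 weeks (-3.17 ± 1.77 at 40 weeks, adjusted *P* = 0.202).

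None of the light chains or tropomyosin was called between WT and KO in the main limma fit. *Myl2*, the slow regulatory light chain, held 288.5 to 2076 counts (median 654.8) in WT and 76.9 to 4419 (median 1122) in KO libraries at 10 weeks. The groups overlapped, and the log2 estimate was 0.16 ± 0.90 (adjusted *P* = 0.958), and -0.36 without KO replicate 6. At 40 weeks *Myl2* was 309.9 to 3385 in WT and 1337 to 12839 in KO libraries (-1.23 ± 0.99, adjusted *P* = 0.397). *Myl3*, the slow essential light chain, was 669.0 to 4716 in WT and 463.4 to 11897 in KO libraries at 10 weeks (-0.97 ± 0.79, adjusted *P* = 0.575). It was 210.5, 5759, 741.6, 1207, and 5804 in WT and 3766, 5192, 15311, 3714, and 7093 in KO muscle at 40 weeks (-2.06 ± 0.86, adjusted *P* = 0.0817). Of the 5 WT libraries, 2 stood at the level of the KO libraries and the other 3 below them. Without WT replicate 5 limma called *Myl3* at 40 weeks (-2.56, adjusted *P* = 0.0367), and without KO replicate 3 it did not (-1.72, adjusted *P* = 0.18). *Tpm3*, which gives rise to slow tropomyosin and to nonmuscle forms that the gene counts do not separate, was 296.8 to 1812 in WT and 290.3 to 5632 in KO libraries at 10 weeks (-1.07 ± 0.82, adjusted *P* = 0.54), and 275.8 to 2670 and 471.1 to 16849 at 40 weeks (-1.69 ± 0.90, adjusted *P* = 0.177).

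*Atp2a2*, the calcium pump of slow and cardiac muscle, had the highest summed count of the members, 31.7% of the sum of all 9. It ranged from 1091 to 6004 (median 1967) in WT and from 858.7 to 16280 (median 4500) in KO muscle at 10 weeks. The 40-week libraries held 913.3, 7870, 985.8, 2793, and 7293 in WT and 3784, 20604, 40968, 2372, and 7876 in KO. The difference at 40 weeks was -1.74 ± 0.84 (adjusted *P* = 0.132). Per exon length, *Atp2a2* was 0.221% of the *Atp2a2* and *Atp2a1* total in the median WT and 0.535% in the median KO library at 10 weeks, and 0.326% and 1.03% at 40 weeks, *Atp2a1* being the fast-fiber pump.

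*Casq2*, the calcium store of slow and cardiac muscle, was lower in WT than in either KO group at both ages. At 10 weeks the WT libraries held 176 to 508.7 normalized counts, with a median of 259.0. KO libraries of that age held 698.9 to 2928 (median 1912) and KO+AAV libraries 828.1 to 2285 (median 1305). At 40 weeks it was 158.6, 545.1, 279.6, 231.4, and 543.9 in WT, 2213, 1673, 5794, 2149, and 2511 in KO, and 2412, 874.4, 3665, 1108, and 1948 in KO+AAV libraries. No WT library reached the lowest library of the other groups of its age. WT minus KO was -2.63 ± 0.38 at 10 weeks (6.2-fold on the log2(count + 1) scale, adjusted *P* = 1.02e-05, limma) and -3.04 ± 0.41 at 40 weeks (8.22-fold, adjusted *P* = 2.18e-06). Without the library labelled KO replicate 2 the 40-week value was -3.20, and without KO replicate 3, the library with the most slow-fiber RNA, -2.75 (adjusted *P* = 1.67e-05). The difference held within each site at 10 weeks, at -3.10 in ICBR (adjusted *P* = 0.00252) and -2.17 in Novogene libraries (adjusted *P* = 0.0381). Its fast-fiber partner *Casq1* outweighed it throughout: per exon length, *Casq2* made up 0.392% of both in the median WT, 2.71% in the median KO, and 1.67% in the median KO+AAV library at 10 weeks, and 0.504%, 6.57%, and 4.67% at 40 weeks. Unlike the counts, this share overlapped at 10 weeks, at 0.234% to 1.08% in WT, 0.873% to 4.97% in KO, and 1.03% to 4.07% in KO+AAV libraries. At 40 weeks it was at most 1.32% in WT and at least 4.02% in KO and 2.23% in KO+AAV libraries.

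*Casq2* was called as 1 of 9 members for WT versus KO at 10 weeks, where 8.0% of the 16199 genes tested were called (adjusted *P* under 0.05), and it was also the 1 member whose groups did not overlap, as for 6.06% of all genes. At 40 weeks 2 of 9, *Casq2* and *Pln*, were called and did not overlap, with 23.5% of all genes called and 13.6% not overlapping. The median log2 difference of the 9 members was -1.07 at 10 weeks and -2.50 at 40 weeks, beside -0.01 and 0.01 for all genes tested. The uncalled members had standard errors of the log2 difference of 0.53 to 1.61 at 10 weeks and 0.84 to 1.77 at 40 weeks. At the larger of these errors, differences of several-fold could not be told from none.

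**Figure D2:**
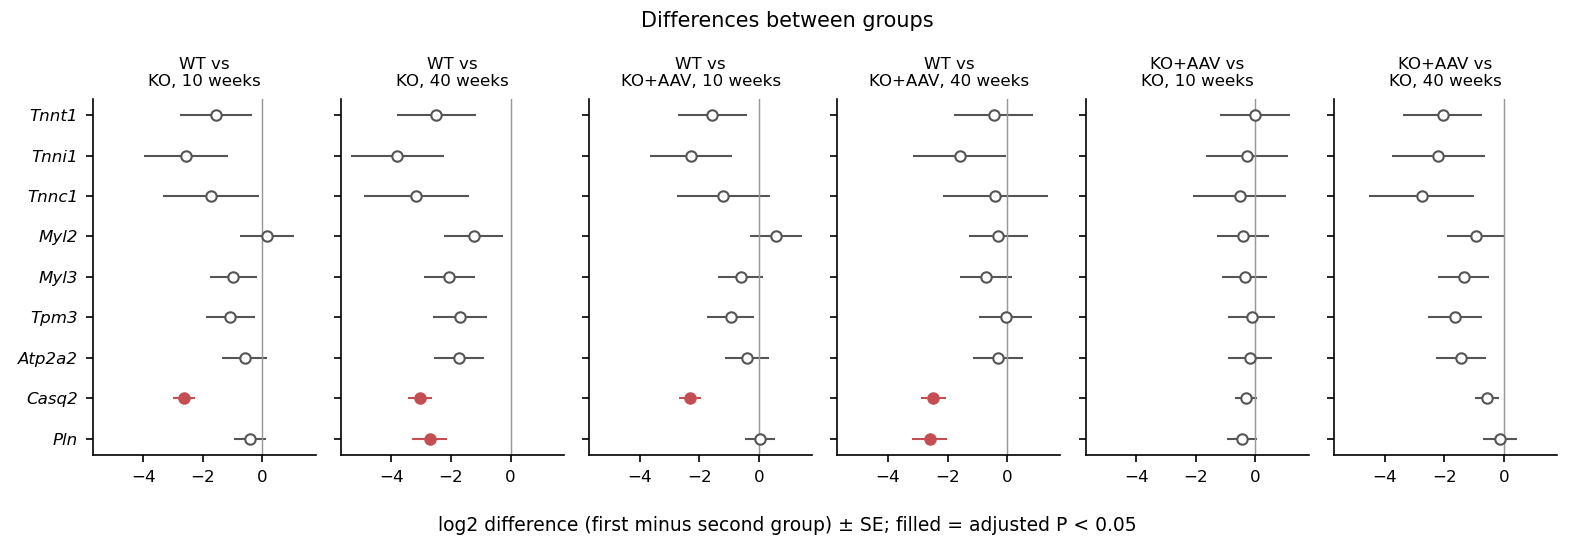
Log2 difference (first minus second group, x axis) of each member with its standard error for the 6 comparisons of WT, KO, and KO+AAV muscle; filled red points have an adjusted *P* under 0.05. *Casq2* is filled in the 4 comparisons with WT and *Pln* in those at 40 weeks, while the troponins and light chains have standard errors of 0.74 or more.

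*Pln*, the inhibitor of SERCA2, was scarce at 10 weeks in all groups and higher at 40 weeks in the groups without endogenous *Bmal1*. The 10-week WT libraries held 10.9 to 66.6 counts (median 26.1), the KO libraries 26.1 to 60.1 (median 30.4), and the KO+AAV libraries 10.3 to 48.8 (median 31). At 40 weeks they were 22.2, 47.6, 8.85, 29.7, and 45.3 in WT, 105.9, 71.6, 815.4, 174.9, and 176.5 in KO, and 237.5, 42.1, 702.2, 114.4, and 154.6 in KO+AAV libraries. All 5 KO libraries and 4 of 5 KO+AAV libraries stood above all 5 WT libraries at 40 weeks. WT minus KO was -2.72 ± 0.58 at 40 weeks (6.6-fold, adjusted *P* = 0.00082), -3.05 without the library labelled KO replicate 2, and -2.18 without KO replicate 3 (adjusted *P* = 0.00479). At 10 weeks it was -0.42 ± 0.53 (adjusted *P* = 0.758), and it was -1.36 in ICBR but 0.52 in Novogene libraries, neither called. The difference between the ages was -2.30 ± 0.78 (unadjusted *P* = 0.00609, adjusted *P* = 0.185), and -2.63 without KO replicate 2 (adjusted *P* = 0.172). No member passed that test of the difference between ages of WT versus KO, where 0.370% of genes were called and *Pln* was the 1 member with an unadjusted *P* under 0.05; edgeR and DESeq2 also called 0. *Pln* shares 64.7% of its exon bases with *Cep85l* and *Gm47644* on the other strand, and whether counting used the strand is not stated. *Cep85l* had medians of 554.9, 465.0, and 393.7 in WT, KO, and KO+AAV libraries at 40 weeks, with 2713 in KO replicate 2 and 1972 in KO+AAV replicate 2, the libraries where *Pln* was lowest in its group.

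The other small inhibitors of SERCA were read beside *Pln*. Sarcolipin (*Sln*), which was listed among the other slow-fiber genes, was 17.8, 25.1, 7.08, 18.8, and 25 in WT, 1871, 2695, 2348, 2102, and 133.8 in KO, and 669.4, 2121, 4717, 1694, and 1487 in KO+AAV libraries at 40 weeks. The lowest KO library was above the highest WT library, and WT minus KO was -6.12 (adjusted *P* = 1.38e-07, limma). At 10 weeks *Sln* was 6.06 to 19.7 in WT and 22.9 to 96.8 in KO muscle (-2.26, adjusted *P* = 0.0247). Myoregulin (*Mrln*) was 423.6 to 813.0 in WT, 933.6 to 1862 in KO, and 510.8 to 1508 in KO+AAV muscle at 10 weeks (WT minus KO -1.30, adjusted *P* = 2.12e-06; KO+AAV minus KO -0.79, adjusted *P* = 0.0247).

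**Figure D3:**
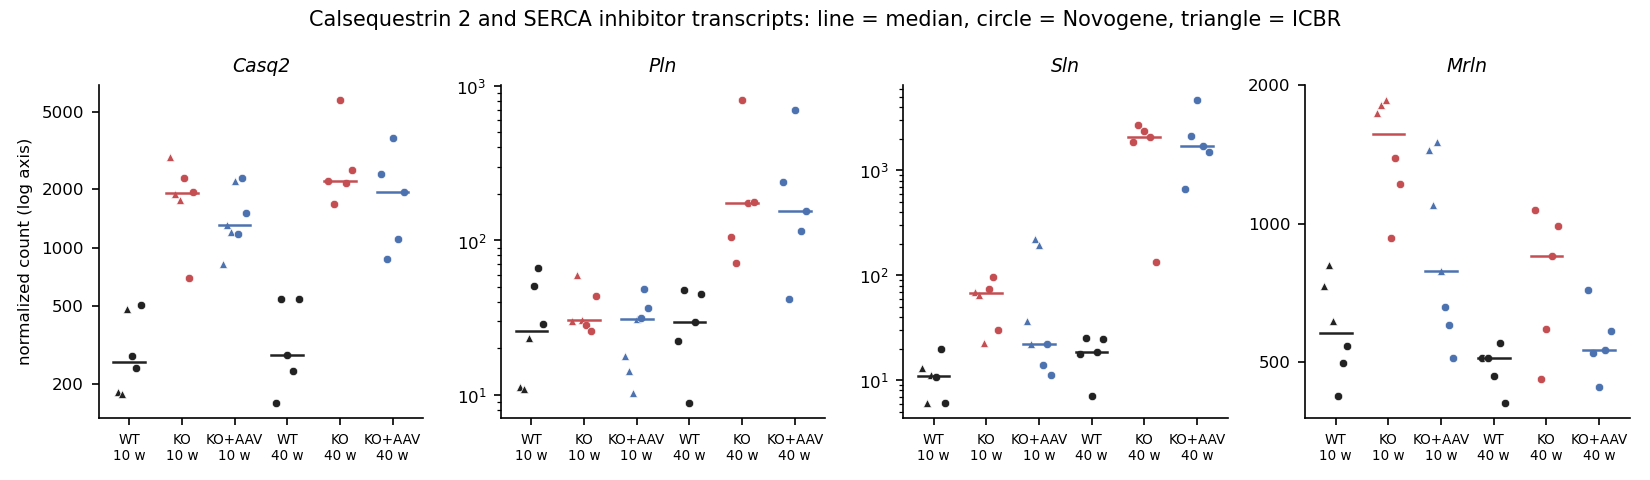
Normalized counts (y axis, log scale) of *Casq2* and of the SERCA inhibitors *Pln*, *Sln*, and *Mrln* by library and group, with medians as lines, Novogene libraries as circles, and ICBR libraries as triangles. *Sln* is at most 220.8 in any 10-week library, 1487 or more in 4 of 5 KO and 4 of 5 KO+AAV libraries at 40 weeks, and at most 25.1 in WT.

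No member differed between KO+AAV and KO muscle in the test. KO+AAV versus KO called 0 of 9 members at 10 weeks, where 0.204% of genes were called, and 0 of 9 at 40 weeks, where 0.259% were. At each age 0 of 9 had an unadjusted *P* under 0.05 by limma. Both edgeR and DESeq2 called 0 as well, with 0 at 10 weeks and 2 at 40 weeks at an unadjusted *P* under 0.05. For *Casq2* the difference was -0.31 ± 0.37 (adjusted *P* = 0.861) at 10 weeks and -0.56 ± 0.41 (adjusted *P* = 0.701) at 40 weeks, with the groups overlapping at both. Without KO replicate 2 at 40 weeks it was -0.72 (adjusted *P* = 0.611) and that of *Pln*, -0.12 with it, was -0.45 (adjusted *P* = 0.861). The *Pln* estimate changed sign without KO replicate 3 (0.42) and without KO+AAV replicate 2 (0.37). The 7 members other than *Casq2* and *Pln* ran from -0.53 to -0.01 at 10 weeks and from -2.76 to -0.93 at 40 weeks. Standard errors reached 1.56 and 1.77, so these data cannot tell such differences from none. Without 10-week KO replicate 6 the 7 ran from -1.63 (*Tnnc1*) to -0.6 (*Atp2a2*) at 10 weeks, with adjusted *P* of 0.822 or more. *Casq2* was then at -0.59 (adjusted *P* = 0.658). Without 40-week KO replicate 3 the 7 ran from -2.03 (*Tnnc1*) to -0.39 (*Myl2*) at 40 weeks.
WT was compared with KO+AAV in the same WT libraries that were set against KO. *Casq2* was lower in WT at 10 weeks (-2.32 ± 0.37, adjusted *P* = 9.31e-05), the 1 of 9 members called beside 5.15% of all genes, and at 40 weeks (-2.48 ± 0.41, adjusted *P* = 8.39e-05). Within the Novogene libraries alone the 10-week value was -2.30 with an adjusted *P* of 0.0575. *Pln* was lower in WT at 40 weeks (-2.60 ± 0.58, adjusted *P* = 0.00244), which made 2 of 9 beside 12.5% of all genes. The other 7 estimates at 40 weeks ran from -1.60 to -0.05.

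Because the members followed *Myh7* so closely, the fit was repeated with the log2 level of *Myh7* as a covariate, an alternative chosen after the data were seen that assumes 1 slope for every group. *Tnni1* then became the second member lower in WT at both ages. WT minus KO was -1.24 at 10 weeks (adjusted *P* = 0.00249) and -1.48 at 40 weeks (adjusted *P* = 0.000594), and WT minus KO+AAV was -0.98 (adjusted *P* = 0.0219) and -1.66 (adjusted *P* = 0.000163). *Casq2* kept its call in all 4, at -2.40, -2.63, -2.09, and -2.49, and *Pln* in both 40-week comparisons, at -2.31 and -2.61. The members called were thus 2 and 3 of 9 against KO, beside 7.68% and 21.5% of genes, and 2 and 3 of 9 against KO+AAV, beside 4.93% and 13.4%. Without KO replicate 3 as well, the 40-week differences from KO were -1.28 for *Tnni1*, -2.45 for *Casq2*, and -1.90 for *Pln*, all called, and without KO replicate 2 instead they were -1.45, -2.81, and -2.65, all called. The remaining members gave no call in these 4 comparisons.
The 10-week KO libraries with the least *Myh7*, replicates 3 and 6 (13.5 and 12.3), held 1767 and 698.9 counts of *Casq2*, and the 10-week WT library with the most *Myh7*, replicate 7 (4943), held 508.7. These 3 libraries were picked after their values were seen. *Tnni1* was 9.68% to 41.4% of the *Tnnt1* count in 10-week WT libraries and 17.5% to 37.4% in 40-week WT libraries. In 40-week KO libraries it was 49.9% to 75.7%, above WT. In 40-week KO+AAV libraries it was 37.5% to 73.0%, the lowest lying next to the highest WT library. At 10 weeks the KO (16.6% to 65.1%) and KO+AAV (13.7% to 74.6%) libraries overlapped with WT. In the KO control libraries of the GFP experiment it was 6.82% to 60.8%, and in KO+GFP libraries 60.3% to 69.2%. This ratio was chosen after its values were seen and is given without a test.

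**Figure D4:**
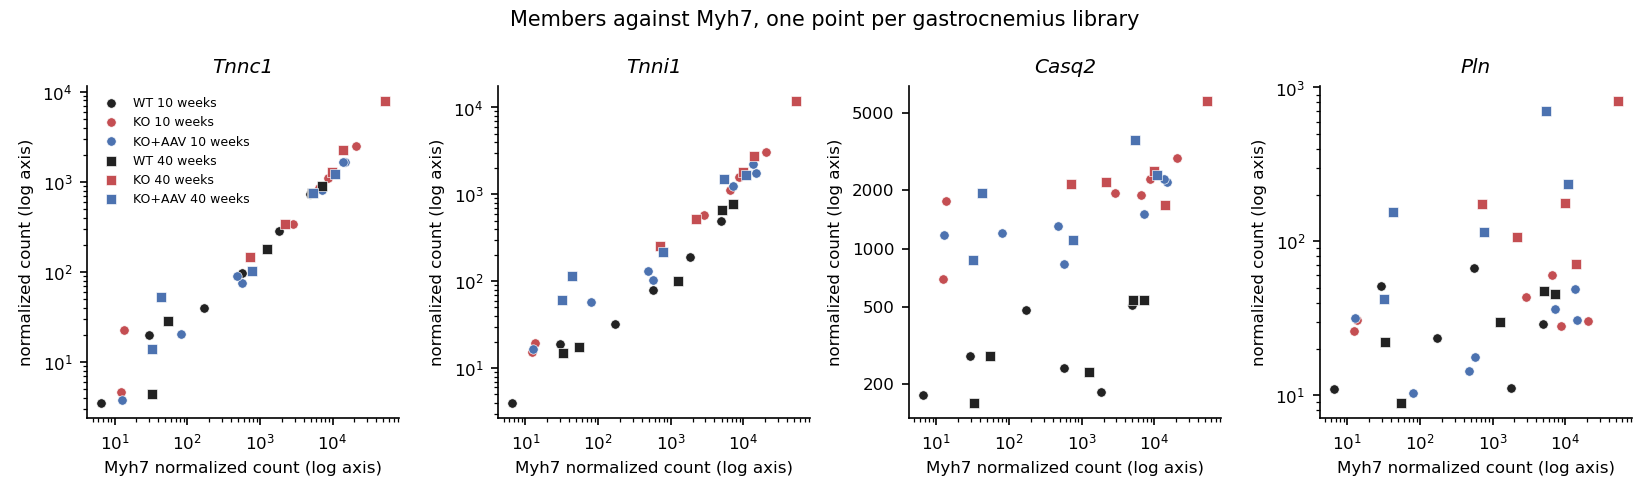
Normalized count of *Tnnc1*, *Tnni1*, *Casq2*, and *Pln* (y axes, log scale) against *Myh7* (x axes, log scale), 1 point for each of the 34 gastrocnemius libraries, colored by genotype with circles at 10 weeks and squares at 40 weeks. *Tnnc1* follows 1 line. WT libraries lie below the others for *Tnni1* and in a band of their own between 158.6 and 545.1 for *Casq2*. *Pln* is at most 66.6 in the 10-week libraries and 71.6 to 815.4 in the 40-week KO libraries. The parts of age, genotype, and *Myh7* in *Pln* were not compared.

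*Pln* was the member called between ages. Its estimate was the largest of the 9 in KO+AAV muscle, while in KO muscle those of *Tnnc1* (2.12) and *Tnni1* (1.96) were larger. All 9 members were above 0 for 40 versus 10 weeks in KO, from 0.52 to 2.12 with standard errors of 0.42 to 1.81 and a median of 1.77, beside -0.01 for all genes. That range rested in part on single libraries. Without 10-week KO replicate 6 it ran from 0.0 (*Tpm3*) to 1.68 (*Pln*), and without 40-week KO replicate 3 *Tpm3* was at -0.02. KO muscle at 40 versus 10 weeks had *Pln* higher by 1.92 ± 0.59 (3.78-fold, adjusted *P* = 0.0411), with no overlap of the groups and with 1 of 9 members called beside 8.31% of genes. Without 40-week KO replicate 3 the value was 1.37 (adjusted *P* = 0.127), and without 40-week KO replicate 2 it was 2.25 (adjusted *P* = 0.038). Without 10-week KO replicate 6 it was 1.68 (adjusted *P* = 0.111). In KO+AAV muscle *Pln* was higher by 2.25 ± 0.59 (4.75-fold, adjusted *P* = 0.0142), again 1 of 9 beside 8.53%, and without KO+AAV replicate 3 the value was 1.73 (adjusted *P* = 0.052). WT muscle gave 0 of 9 beside 0.148% of genes, with 0 of 9 at an unadjusted *P* under 0.05, 0 by edgeR, and 0 by DESeq2, and estimates from -0.39 to 0.83. The change of KO+AAV versus KO between ages called 0 of 9, beside 0.00617% of genes, with 0 at an unadjusted *P* under 0.05, 0 by edgeR, and 0 by DESeq2. Marker lists also moved between ages. In KO muscle *Tnnt2*, 1 of 2 tested cardiomyocyte markers and a gene that developing skeletal muscle also makes, was higher at 40 weeks (0.93, adjusted *P* = 0.0471), and the sum of all 6 markers was 27.6 to 96.7 at 10 weeks and 71.5 to 180.7 at 40 weeks. Of the 6 satellite and regenerating fiber markers, *Myh3* (3.49) and *Myh8* (1.46) were higher and *Pax7* (-0.92) was lower in KO, and *Myh3* (3.22) was higher and *Myf5* (-0.97) lower in KO+AAV. In KO+AAV the macrophage markers had a median of -1.44 with 1 of 7 called lower and 5 at an unadjusted *P* under 0.05, and 0 of 2 cardiomyocyte markers were called. In both groups 0 of 4 smooth muscle markers were called, with 0 at an unadjusted *P* under 0.05. Also called lower at 40 weeks were 1 of 6 fast fiber markers in each group, 1 of 6 adipocyte markers in KO, and 1 of 5 endothelial markers in KO+AAV, and 0 Schwann cell, tendon, or erythroid markers were called in either. The part of the lists that moved in the *Pln* difference was not tested. Both *Pln* calls between ages were lost when only the groups compared were fitted. All 40-week libraries were from Novogene, and within the Novogene libraries alone *Pln* was higher by 2.47 in KO (adjusted *P* = 0.0609) and 2.09 in KO+AAV muscle (adjusted *P* = 0.123).

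In the GFP experiment, slow-fiber transcripts were higher in KO+GFP than in KO control muscle. *Tnnt1* was 1280, 937.7, and 1002 in KO+GFP and 651.2, 50, and 68.4 in control libraries, and *Tnni1* 885.8, 565.1, and 649.5 against 396.1, 3.41, and 19.7. In 8 of 9 members the 3 KO+GFP libraries were above the 3 controls, *Pln* being the exception, as for 11% of all genes tested. Control replicate 1 lay nearer to the KO+GFP libraries than to the other controls for *Tnnt1*, and its *Myh7* of 2605 compared with 5.68 and 38.3 in the other controls and 3687 to 5351 in KO+GFP. Of the 9 members, 7 were called beside 3.09% of the 14477 genes tested, all higher in KO+GFP: *Tnnt1* (3.01 ± 0.68, adjusted *P* = 0.0342), *Tnnc1* (4.22 ± 1.01, adjusted *P* = 0.0444), *Myl2* (2.56 ± 0.51, adjusted *P* = 0.019), *Myl3* (1.99 ± 0.24, adjusted *P* = 0.00133), *Tpm3* (1.96 ± 0.41, adjusted *P* = 0.0239), *Atp2a2* (1.40 ± 0.34, adjusted *P* = 0.0448), and *Casq2* (0.93 ± 0.13, adjusted *P* = 0.00259). *Tnni1* (4.38 ± 1.11, adjusted *P* = 0.0561) and *Pln* (0.71 ± 0.44, adjusted *P* = 0.42) were not. Most members varied together between libraries in the main experiment, so the 7 calls cannot be counted as 7 separate results.
With *Myh7* as a covariate, 1 of 9 was called (*Myl3*, 1.2, adjusted *P* = 0.0255) beside 0.290% of genes. *Myh7* itself did not overlap between KO+GFP and control libraries, so this fit cannot separate its level from the group. On the recovered reads edgeR called 3 members, *Myl2*, *Myl3*, and *Casq2*, and DESeq2 called *Myl3* and *Casq2*. The macrophage markers were higher in KO+GFP with 5 of 7 called (sums of 414.2 to 517.2 against 172.7 to 236.4) and the Schwann cell markers lower with 2 of 5 called (282.5 to 334.6 against 720.6 to 930.1). Of the 6 satellite and regenerating fiber markers 1, *Myh3*, was called higher (2.48; sums of 515.5 to 535.3 against 413.7 to 456.6). The 2 cardiomyocyte markers tested had a median of 1.76 with 0 called and 1, *Myh6*, at an unadjusted *P* under 0.05, and the sums of all 6 did not overlap (27.3 to 48.7 against 15.9 to 17.9). The 3 smooth muscle markers tested had a median of -0.45 with 0 called and 2 at an unadjusted *P* under 0.05. The part of these lists in the result was not tested.

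**Figure D5:**
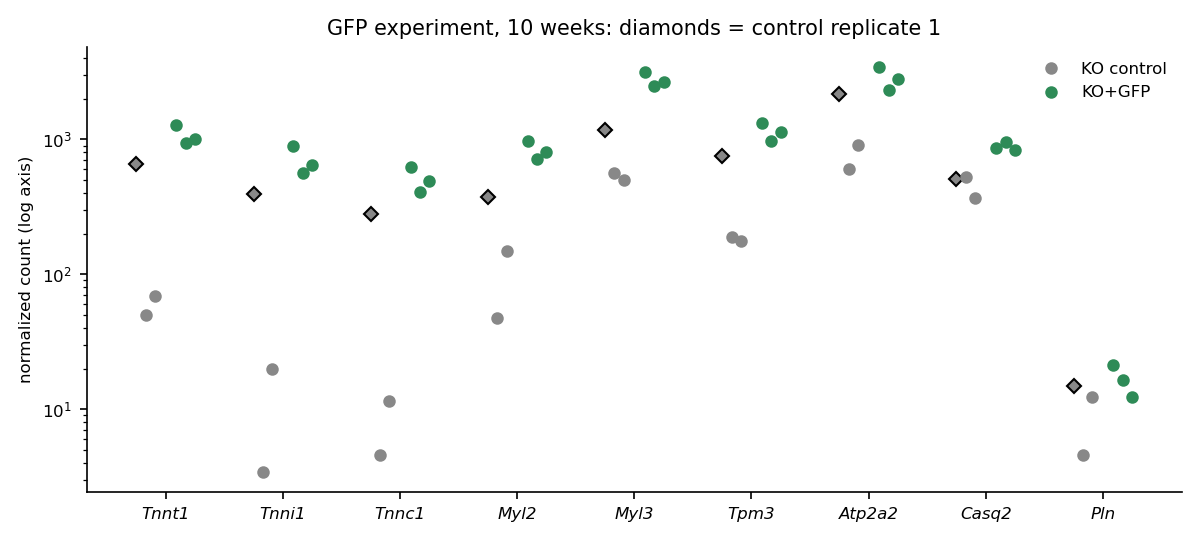
Normalized count (y axis, log scale) of each member (x axis) in the 3 KO control (grey) and 3 KO+GFP (green) libraries, with control replicate 1 as outlined diamonds. The diamonds lie between the other controls and the green points for most members, while for *Casq2* the 3 controls lie together at 368.9 to 525.1, below 826.6 to 950.9.

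Of the 8 fast partners (*Tnnt3*, *Tnni2*, *Tnnc2*, *Mylpf*, *Myl1*, *Tpm1*, *Atp2a1*, and *Casq1*), 0 were called for WT versus KO at 10 weeks (median -0.01, 1 with an unadjusted *P* under 0.05) and 3 were higher in WT at 40 weeks (median 0.40): *Tpm1* by 0.73, *Casq1* by 0.67, and *Tnni2* by 0.46. *Mylpf* was lower in WT than in KO+AAV at 10 weeks (-0.57, adjusted *P* = 0.0449). *Casq1*, the main calcium store of fast fibers, was lower at 40 than at 10 weeks in KO (-1.09, adjusted *P* = 0.00791) and in KO+AAV muscle (-1.04, adjusted *P* = 0.00773). *Tnnc2* and *Atp2a1* share 74.0% and 21.9% of exon bases with genes on the other strand. Per exon length, *Tnnt1* was 0.0596% of the *Tnnt1* and *Tnnt3* total in the median WT and 0.361% in the median KO library at 10 weeks, and 0.136% and 0.918% at 40 weeks, with the highest library, 40-week KO replicate 3, at 8.21%.

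The other slow-fiber genes (*Myh7*, *Myh7b*, *Myl6b*, *Myoz2*, *Csrp3*, *Ankrd2*, *Lmod2*, and *Sln*) had a median of -0.88 for WT versus KO at 10 weeks, with 1 of 8 called lower, and -1.69 at 40 weeks, with 3 called lower: *Sln*, *Ankrd2* (-3.08), and *Myoz2* (-2.01). *Ankrd2*, a stretch-responsive sarcomere protein, was 512.9 to 3714 in WT and 4777 to 30905 in KO muscle at 40 weeks, without overlap. Of the 8, 5 were called higher in KO+GFP than in control muscle (median 1.67), beside 3.09% of all genes tested there. Of the 13 fast-fiber genes, 0 were called at 10 weeks (1 with an unadjusted *P* under 0.05) and 3 were higher in WT at 40 weeks, led by *Pvalb*, the calcium buffer of fast fibers (0.95). In KO+GFP muscle *Myh2* (1.63) and *Myh1* (1.29) were higher than in controls and *Mybpc2* (-0.53) was lower.
Of the 13 calcium release and uptake genes, 12 were matched and tested. Of these, 3 were lower in WT than in KO at 10 weeks (*Mrln*, *Cacna1s* at -0.46, and *Cacnb1* at -0.37). At 40 weeks *Cacnb1* (-0.30) and *Mrln* (-0.63) were lower and *Jph2*, which ties the reticulum to the surface membrane, was higher in WT (0.87). Of all genes, 23.5% were called at that age. The cardiac and developmental sarcomere isoforms, 6 of 8 tested, had 1 called lower at 10 weeks (*Actc1*, cardiac actin, -1.46) and 3 at 40 weeks: *Myh3* (-3.82), *Actc1* (-2.54), and *Myh8* (-1.85). *Myh3*, the embryonic myosin, was 10.4 to 106.5 in WT and 146.2 to 1182 in KO libraries at 40 weeks.

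Markers of other cell types were read because *Casq2* and *Pln* are also made by heart and smooth muscle. Of the 4 smooth muscle markers, 0 were called in each of the 4 comparisons of WT with KO or KO+AAV, and 0 had an unadjusted *P* under 0.05. Their summed count was 1014 to 1605 in WT, 917.3 to 1884 in KO, and 1012 to 1724 in KO+AAV at 40 weeks, and *Myh11* made up 37.4% of the sum over all gastrocnemius libraries of the main experiment. Of the 6 cardiomyocyte markers 2 were abundant enough to test and 0 were called in those comparisons, with 1 at an unadjusted *P* under 0.05 for WT versus KO at 10 weeks. *Nkx2-5*, a factor that defines cardiomyocytes, was at 0 in every gastrocnemius library. The summed count of the 6 was 74.3 to 109.4 in WT, 71.5 to 180.7 in KO, and 29.5 to 106.8 in KO+AAV at 40 weeks, with *Tnnt2* as the most abundant (55.8% of the sum over the main experiment).
For WT versus KO at 40 weeks, where 23.5% of all genes were called, 1 of 6 fast fiber and 2 of 6 adipocyte markers were called higher in WT. Of 5 endothelial markers 1 was called lower, and 0 of 7 macrophage, 0 of 5 Schwann cell, 0 of 6 tendon, and 0 of 3 erythroid markers were called, with 2 of the tendon markers and 0 of the other 3 lists at an unadjusted *P* under 0.05. The satellite and regenerating fiber markers had 3 of 6 lower and 1 higher in WT (sums of 527.0 to 784.5 in WT against 1063 to 2109 in KO), and their part in the *Casq2* and *Pln* differences was not tested. For WT versus KO+AAV at 40 weeks, the same list had 3 of 6 lower in WT (*Myog*, *Myh3*, and *Myh8*, median of the list -1.12), and 1 of 6 adipocyte markers was higher. Of all genes, 12.5% were called in that comparison, and 5.15% at 10 weeks. At 10 weeks 1 of 7 macrophage markers (*Mrc1*) was lower in WT than in KO+AAV (median -1.15), and the part of these lists in the *Casq2* and *Pln* calls was not tested. At 10 weeks 0 markers of these lists were called between WT and KO, with 3 of 3 erythroid, 2 endothelial, and 1 each of the adipocyte, macrophage, and satellite markers at an unadjusted *P* under 0.05.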

How the data were processed

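RNA-Seq was made from poly(A) RNA of gastrocnemius. Per the labels and the study's methods, the authors aligned reads with HISAT2 to GRCm38, counted them on genes with HTSeq, and deposited DESeq2-normalized counts, a signal per gene equal to the count divided by 1 size factor per library. Dividing out the smallest step gave whole reads for 100% of values in 72 libraries (tolerance 0.05). The annotation release and strand setting of the counting are not given in the sources used here; overlaps and exon lengths were taken from GENCODE vM21.

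Values were tested on log2(normalized count + 1) for genes with a mean above 5 with limma 3.58.1 (trend, Benjamini-Hochberg adjustment over all genes tested). A single model held the 34 gastrocnemius libraries (6 groups, site as covariate), so comparisons share libraries, and the GFP experiment was fitted alone. The labels number the libraries as replicates, and *P* values measure the spread between them. Group medians, counts called, and slow shares within 8 slow and fast pairs were computed from the same values. Alternatives were edgeR 4.0.16 and DESeq2 1.42.0 on recovered reads, other filters and pseudocounts, library weights, a replicate block, single sites, and leaving out libraries; *Myh7* as a covariate was added after the data were seen. The members and lists were chosen with earlier results of these data known. All 9 members and the 8 fast partners were named in every comparison where they bear on it, with up to 4 genes of each other list by smallest *P*, and the 10 genes most like the members; *Sln*, *Mrln*, *Ankrd2*, *Myh3*, *Per3*, and *Cep85l* were singled out after their values were seen.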

Additional observations from a re-analysis of the deposited data

Results flagged for a closer look

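Of 54 sets of values (9 members in the 6 main groups), 1 held a library that stood apart from its group on the log2(count + 1) scale used for the tests. In 10-week KO muscle, *Casq2* was 698.9 in replicate 6 against 1767 to 2928 in the other 5 libraries, a gap on that scale of 0.647 of the whole range where 0.625 is the limit for 6 values. On the counts themselves the gap was 0.479, under the limit. Of the 54 sets, 9 others held a library apart on the counts and not on the log2 scale: 7 members in 40-week KO muscle (*Tnnt1*, *Tnni1*, *Tnnc1*, *Myl2*, *Tpm3*, *Casq2*, and *Pln*, each with replicate 3 highest), *Tnnt1* in 10-week WT, and *Atp2a2* in 10-week KO muscle. Chance alone would set some of 54 sets apart at this limit. *Myh7* was 12.3 in the same library, the lowest of its group, and the part of slow-fiber content in the low *Casq2* value was not tested.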

How the results depend on the processing

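The 4 differences of *Casq2* and the 2 of *Pln* at 40 weeks from WT kept their direction and call under every alternative run, except *Casq2* for WT versus KO+AAV at 10 weeks in Novogene libraries alone (-2.30). The number of members called changed as follows. With *Myh7* as a covariate it was 2 at 10 weeks and 3 at 40 weeks for WT versus KO, and the same for WT versus KO+AAV. With this covariate it was 0 for KO and 2 for KO+AAV between ages, and 1 in the GFP experiment. For KO between ages it was also 0 when KO replicate 3 at 40 weeks was left out as well. Novogene libraries alone gave 0 for WT versus KO+AAV at 10 weeks and 0 for KO and 0 for KO+AAV between ages. Only the groups compared gave 0 and 0 between ages, and no filter on low values and library weights each gave 0 for KO. In the GFP experiment edgeR gave 3 and DESeq2 2. Leaving out 1 library at a time gave 2 to 4 for WT versus KO at 40 weeks, 0 to 1 for KO and 0 to 1 for KO+AAV between ages, and 2 to 8 in the GFP experiment. The replicate block gave 0 for KO and 0 for KO+AAV between ages; the numbers did not pair the libraries (5 of 32 same-numbered pairs in the main experiment and 0 of 3 in the GFP experiment correlated above 0.1, and 4 of 34 libraries correlated best with their own number).

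Of the 36 estimates followed singly, those that changed sign were *Myl2* for WT versus KO at 10 weeks by edgeR (-0.60), DESeq2 (-0.59), library weights (-0.40), the replicate block (-0.06), ICBR alone (-0.28), and leaving out 1 library at a time (-0.46 to 0.78), *Myl2* for WT versus KO at 40 weeks with *Myh7* as a covariate (0.05, 0.28 without KO replicate 3, and 0.02 without KO replicate 2), *Casq2* for KO+AAV versus KO at 10 weeks in Novogene libraries (0.13) and at 40 weeks with *Myh7* as a covariate and without KO replicate 3 (0.04), *Pln* for KO+AAV versus KO at 40 weeks with library weights (0.10), *Myh7* as a covariate (0.30, and 0.71 without KO replicate 3), and leaving out 1 library at a time (-0.64 to 0.42), *Pln* in the GFP experiment with *Myh7* as a covariate (-0.15), and *Pln* for WT versus KO at 10 weeks in Novogene libraries (0.52). The cause was not tested. Over all genes, the number called moved by more than 1.5 times in some alternatives. For WT versus KO it was 1296 at 10 weeks against 301 (Novogene alone) to 3416 (library weights), and 3804 at 40 weeks against 2142 (only the groups compared). WT versus KO+AAV gave 834 against 86 (Novogene alone) to 1698 (library weights) at 10 weeks and 2018 against 3165 (library weights) at 40 weeks. KO+AAV versus KO gave 33 against 3 (ICBR alone) to 180 (library weights), and 42 against 4 (only the groups compared) to 79 (DESeq2). Between ages the numbers were 1346 against 3 (only the groups compared) in KO, 1382 against 108 (replicate block) to 2088 (no site term) in KO+AAV, and 24 against 0 (replicate block) to 171 (library weights) in WT. The differences between ages gave 60 against 0 (Novogene alone) to 206 (DESeq2), and 1 against 0 to 5 (DESeq2), and the GFP experiment 448 against 42 (*Myh7* as a covariate) to 868 (library weights). Of the 55 member estimates given as ranges, 38 changed sign in some setting and 1 was called in some setting. DESeq2 also called *Tnni1* for WT versus KO at 40 weeks (-3.45, adjusted *P* = 0.0302), and without WT replicate 5 limma called *Tnni1* (-4.51) and *Myl3* (-2.56).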

Other observations

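Outside the members, the genes whose levels followed the mean of the members most closely over the 34 libraries, after group and site means were removed, were *Cyfip2* (r = 0.933), *Myh7* (0.916), *Gm43361* (0.913), *Pdlim1* (0.908), *Fhl2* (0.901), *Homer2* (0.898), *Idh2* (0.894), *Fzd9* (0.894), *Tpm3-rs7* (0.89), and *Pcp4l1* (0.889). *Gm43361* overlaps *Atp2a2* on the other strand and *Tpm3-rs7* is a *Tpm3* copy, so reads may be shared. The points share libraries and normalization, and no test was made.

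Of 16 fiber-type regulators, 0 were called for WT versus KO at 10 weeks (3 with an unadjusted *P* under 0.05), and 7 were higher and 1 lower in WT at 40 weeks. *Prox1* was the gene called lower (-1.23) and was named after its value was seen. Among those called higher were *Tbx15* (0.58), *Tead1* (0.65), and *Ppargc1a* (0.67). In the 4 libraries of 40-week KO heart, the median CPM from recovered reads was 13845 for *Atp2a2*, 4362 for *Pln*, and 1258 for *Casq2*, while *Tnni1* was at 0.0579, against 108.3 for *Tnni1* in 40-week KO gastrocnemius.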
